A study of Mus musculus with 9 samples.

Results

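The histone genes of the mouse were followed in polyadenylated liver RNA, as 77 of the 21936 genes of the deposited table. They were chosen by symbol, from the current and older naming patterns of the H1, H2A, H2B, H3 and H4 genes. By symbol, 64 are replication-dependent genes, 8 are replacement variants (H1f0, H1f10, H2ax, H2aj, H2az1, H2az2, H3f3a and H3f3b) and 5 are germline genes (H1f6, H1f7, H1f8, H2ac1 and H2bc1). Macro-H2A, the centromeric variant Cenpa and other variants with names outside these patterns are not included. The family was taken up because Hist1h4m, H1f4 and H4c14 were among the genes with the largest rises after retrorsine in these same libraries, so the values of those 3 genes are given as a description, without a p-value, and the counts of members support nothing by themselves.

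The samples were livers of wild-type mice collected 2 h after an intraperitoneal injection of retrorsine at 25 mg/kg, of retrorsine at 50 mg/kg, or of NaCl, with 3 libraries in each of the 3 groups. Retrorsine is a pyrrolizidine alkaloid, a plant toxin that is metabolised to reactive products in the liver. The libraries were made from RNA captured with oligo(dT) beads, fragmented and copied with random primers. Whether the 3 repetitions were separate animals is not stated, so p-values measure only the spread between these samples.

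Replication-dependent histone mRNAs are made mainly in S phase and supply the histones that package newly copied DNA. Their primary transcripts are cut just after a conserved stem-loop, which is bound by the protein SLBP, with the help of the U7 small nuclear ribonucleoprotein, and the mature mRNA normally carries no poly(A) tail. Oligo(dT) capture therefore recovers little of it, and what it recovers includes transcripts that run past the stem-loop to a polyadenylation signal. Replacement variants such as H3.3 (H3f3a and H3f3b), H2A.Z (H2az1 and H2az2) and H1.0 (H1f0) are made throughout the cell cycle from ordinary polyadenylated mRNAs, and they are the main histone mRNAs of resting cells such as hepatocytes.

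The stem-loops of the members that the results turn on are shown with 5 bases on each side where the transcript extends that far, 5′ to 3′ on the gene's strand, from GENCODE M21 on GRCm38. The capitals mark the 16-base stem-loop, whose first 6 and last 6 bases pair with each other.
H1f2, chr13:23739507-23739532, plus strand: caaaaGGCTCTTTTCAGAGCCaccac
H1f4, chr13:23621777-23621802, minus strand: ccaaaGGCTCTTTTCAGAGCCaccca
H2bc6, chr13:23585526-23585551, minus strand: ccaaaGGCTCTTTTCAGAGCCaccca
H3c15, chr3:96238480-96238505, minus strand: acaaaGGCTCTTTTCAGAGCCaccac
H4c9, chr13:22040961-22040986, minus strand: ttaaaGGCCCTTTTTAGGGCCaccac
H4c14, chr3:96262934-96262959, minus strand: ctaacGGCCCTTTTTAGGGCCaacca
Hist1h4n, chr13:21831793-21831818, minus strand: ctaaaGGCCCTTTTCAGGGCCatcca
Hist1h4m, chr13:21812124-21812147, plus strand: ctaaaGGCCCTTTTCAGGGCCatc
H2ax, chr9:44335235-44335260, plus strand: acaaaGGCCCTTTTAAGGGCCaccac

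The first 3 of these and H3c15 carried the same 16 bases, while the H4 genes had stems with more C and G. The histone stem-loop, searched on the gene strand, was found with pairing arms in 45 of the 64 replication-dependent genes, in 8 kinds of sequence. Among the replacement variants only H2ax, which encodes the H2A.X protein phosphorylated at DNA breaks and is known to make both kinds of mRNA, held a stem-loop. As a background, 5.39% of the 21824 other protein-coding genes held the letters of such a stem-loop somewhere in a transcript, without regard to pairing. The annotated transcripts of H1f2, H1f4, H2bc6, H3c15, H4c9 and H4c14 continue past the stem-loop by 840, 1153, 1861, 377, 330 and 1257 bases, whereas those of Hist1h4n and Hist1h4m stop 31 and 3 bases after it.

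The libraries held 15241261 to 18691736 counted reads, and the NaCl libraries were not the shallower ones. Histone genes took 139274 reads over the 9 libraries, of which 18737 came from replication-dependent genes. Hepatocyte markers summed to 113500 to 152200 CPM (counts relative to the size of the library after TMM scaling) in every library, with 0 of 5 called in either comparison. Pancreatic acinar transcripts summed to 10.9 to 18.0 CPM at 25 mg/kg, to 9.72, 220 and 16.4 CPM at 50 mg/kg and to 3705, 569 and 157 CPM with NaCl, so NaCl replicate 1 stood apart, every NaCl library was above every retrorsine library except 50 mg/kg replicate 2, and 6 of the 6 acinar markers were lower at 25 mg/kg. Clps had no read at 25 mg/kg. Neutrophil markers summed to 143 CPM in 50 mg/kg replicate 3 and to 2.13 to 17.1 CPM in the other 8 libraries. That sum came from S100a8 (39.2 CPM) and S100a9 (103 CPM). Mpo and Elane had 0.477 and 0.341 CPM in that library, against 0.455 and 0.911 CPM in 25 mg/kg replicate 1. T and B cell markers summed to 3.59, 6.18 and 8.94 CPM at 25 mg/kg and 11.3, 39.2 and 6.61 CPM at 50 mg/kg, against 3.29, 2.38 and 2.31 CPM with NaCl. Every retrorsine library was above every NaCl library in this sum, and 2 of the 5 tested were called higher at 50 mg/kg. Cd3e made 8.38, 32.3 and 3.14 CPM of the sum at 50 mg/kg, against 0.202 to 0.351 CPM with NaCl. At that dose the means of Cd3g, Cd8a and Cd79a were also above those with NaCl. Those of Cd4 (0.962 against 1.44 CPM) and Ms4a1 were below, so the markers did not move together. Erythroid markers summed to 187, 130 and 214 CPM at 25 mg/kg and 68.0, 314 and 244 CPM at 50 mg/kg, against 49.1, 124.1 and 122.9 CPM with NaCl, with 0 called. The part of these transcripts in the histone results was not tested, but counts without some of these libraries are given beside the results. In bulk tissue, a change in the number of cells of a type and a change of RNA per cell cannot be told apart.

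More replication-dependent histone genes were seen after retrorsine than with NaCl. At least 1 read was found for 38, 33 and 42 of the 64 genes at 25 mg/kg and for 35, 46 and 34 at 50 mg/kg, against 24, 22 and 21 with NaCl. Every retrorsine library was above every NaCl library in this count, whereas over all genes 14605 to 15082 had a read at 25 mg/kg and 14732 to 15046 at 50 mg/kg, against 14535 to 15122 with NaCl. Of the 64 genes, 15 had no read in any library and 35 had no read with NaCl. Comparing 3 libraries with 3, 18 of the 47 genes with a read in either group had reads at 25 mg/kg and none with NaCl (38.3%), where 3.60% of all such genes of the table did. At 50 mg/kg these were 19 of 48 genes (39.6%), where 3.87% of all such genes did. In the other direction, 0 genes had reads with NaCl and none at 25 mg/kg and 0 had none at 50 mg/kg, where 4.17% and 3.96% of all genes did. These shares over all genes were not matched for abundance, and 29 of the 64 members had under 10 reads over the 9 libraries. A scarce gene more easily has no read in a group, in either direction, so the sizes of the shares cannot be compared directly.

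**Figure D1:**
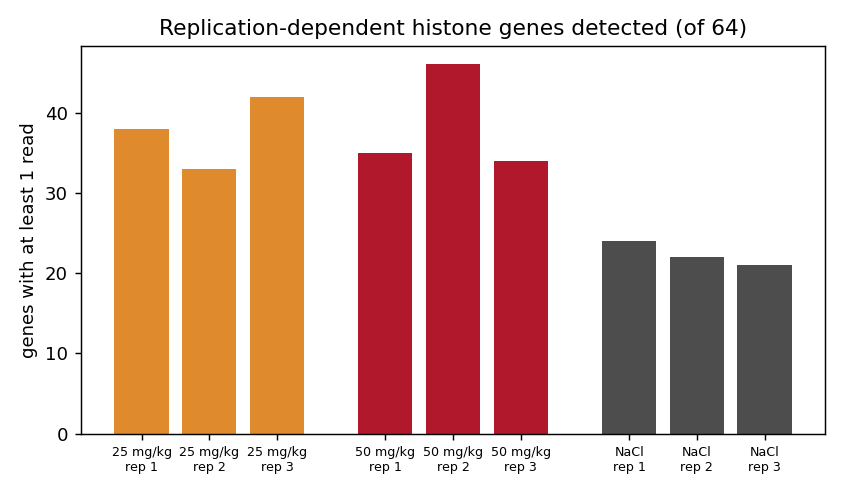
Number of the 64 replication-dependent histone genes with at least 1 read (y axis) in each library (x axis), with retrorsine at 25 mg/kg, retrorsine at 50 mg/kg and NaCl from left to right. The retrorsine libraries lie between 33 and 46 genes and the NaCl libraries between 21 and 24.

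Many replication-dependent genes were scarce, with fewer than 10 reads over all 9 libraries for 29 of the 64. H2bc4, a core H2B gene, alone held 43.8% of the replication-dependent reads, and the 5 genes with most reads held 76.4%. The 16 replication-dependent H2A genes were the least visible: 10 had no read anywhere, and together they had 1, 3 and 9 reads at 25 mg/kg and 7, 13 and 4 reads at 50 mg/kg, against 0, 0 and 0 with NaCl. Near-identical coding sequences are common in this family, and how the counting treated reads that match several copies is not given in the sources used here, so a read of one copy may have been split, dropped or given to another.

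A filter on low counts left 28 members to test, 21 replication-dependent genes and 7 replacement variants. Of the 21, 14 passed the filter only through the retrorsine libraries (H1f1, H1f4, H2bc6, H2bc8, H3c4, H3c6, H3c8, H3c11, H4c3, H4c8, H4c12, H4c14, Hist1h4m and Hist1h4n), so a difference from NaCl was built into their selection, and their values are a description. Each gene was compared between groups with edgeR's quasi-likelihood test over all 12557 genes that passed, with Benjamini-Hochberg adjusted p-values and a threshold of 0.05. At 25 mg/kg, 11 replication-dependent genes and 2 replacement variants were called higher than with NaCl and 0 were lower, where 5.90% of all genes tested were called higher and 7.56% lower. At 50 mg/kg, 12 replication-dependent genes and 2 replacement variants were called higher than with NaCl and 0 were lower, where the backgrounds were 7.09% and 8.01%. By the same test, 0 members were lower at an unadjusted p below 0.05 in either comparison, and DESeq2 and limma-voom called 0 lower as well. Among the 7 replication-dependent genes that pass the filter through NaCl alone, 3 were called at 25 mg/kg and 4 at 50 mg/kg.

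The number of replication-dependent genes called depended on single libraries, since only 3 stand in each group. At 25 mg/kg the 11 calls became 2 when 25 mg/kg replicate 1 was left out and 3 when its replicate 3 was left out. They became 5, 5 and 2 when NaCl replicates 1, 2 and 3 were left out in turn. At 50 mg/kg the 12 calls became 7, 5 and 18 when replicates 1, 2 and 3 of that dose were left out in turn, and 7, 6 and 3 when NaCl replicates 1, 2 and 3 were left out. With NaCl replicate 1 and 50 mg/kg replicate 2 left out, the libraries with most acinar reads in their groups, the calls were 5 at 25 mg/kg and 2 at 50 mg/kg. With NaCl replicate 1 and 50 mg/kg replicate 3, the library rich in S100a8 and S100a9, left out they were 12 and 15. The first of these choices leaves NaCl replicates 2 and 3 with their acinar reads in the comparison. The calls of H1f2 and H3f3b, which pass the filter by NaCl alone, were kept at both doses under all 20 alternative fits and choices of libraries that were run.

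**Figure D2:**
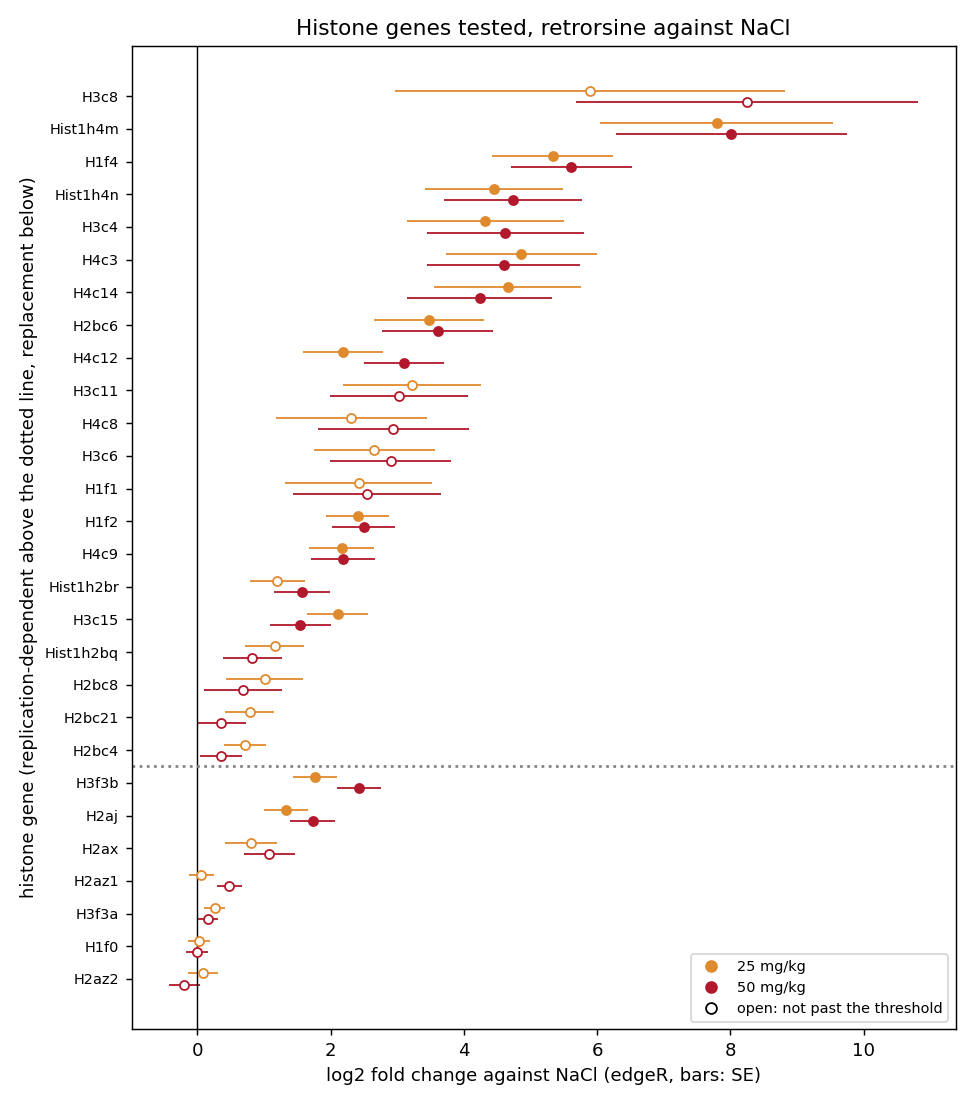
Log2 fold change against NaCl (x axis, edgeR estimate with its SE) of the 28 tested histone genes (y axis), at 25 mg/kg and 50 mg/kg. Filled points passed the threshold, open points did not, and all 21 replication-dependent genes lie to the right of 0 at both doses. For Hist1h4m and H3c8, which had no read with NaCl, the plotted estimate depends on the fit's prior count and is no bound.

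The log2 fold change had a median of 2.42 at 25 mg/kg and 2.94 at 50 mg/kg over the 21 tested replication-dependent genes, and of 1.20 and 1.54 over the 7 that passed the filter by NaCl alone. Over the 7 tested replacement variants it was 0.26 and 0.48, and over all genes tested it was 0.01 and 0.00. The 2 comparisons share the NaCl libraries. Genes spanning under 2 kb, as most histone genes do, had medians of 0.29 and 0.36, with 7.57% and 11.2% called higher among 251 tested genes that are not histone genes. Every retrorsine library was above every NaCl library for 18 of the 64 replication-dependent genes at each dose. Of the 8 replacement variants this held for 3 at 25 mg/kg and 4 at 50 mg/kg. It held for 14.2% of all genes with a read at 25 mg/kg and 13.7% at 50 mg/kg, and for 17.7% and 16.6% of the genes tested. The 18 include untested genes and genes that passed the filter only through the retrorsine libraries, so this count is a description.

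The linker histones, which bind the DNA where it enters and leaves the nucleosome, include H1f2, the replication-dependent linker gene with most reads. H1f2, which encodes H1.2 (chr13:23738808-23740367, GRCm38), had 29.4, 21.9 and 27.4 CPM at 25 mg/kg and 32.7, 35.7 and 15.4 CPM at 50 mg/kg, against 9.08, 3.23 and 2.71 CPM with NaCl. All retrorsine libraries were above all NaCl libraries, with the lowest in 50 mg/kg replicate 3 and the highest NaCl value in the acinar-rich replicate 1. Its log2 fold change was 2.40 ± 0.47 (SE; edgeR adjusted p = 0.0108) at 25 mg/kg and 2.50 ± 0.47 (adjusted p = 0.00982) at 50 mg/kg.

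H1f4, which encodes H1.4 (chr13:23620629-23622558), had 1.48, 1.06 and 2.76 CPM at 25 mg/kg and 3.77, 1.88 and 0.818 CPM at 50 mg/kg, against 0.0672, 0.0505 and 0 CPM with NaCl. The NaCl values rest on 2 reads over the group, so the size of the change is poorly fixed. The ratio of scaled reads to NaCl was 49.7 at 25 mg/kg (95% counting interval 13.4 to 416) and 60.4 at 50 mg/kg (16.3 to 506). H1f1, the gene of H1.1, reached 0.398, 0.199 and 1.30 CPM at 25 mg/kg and 0.122, 0.910 and 1.09 CPM at 50 mg/kg, against 0.269, 0 and 0.100 CPM with NaCl. Its groups overlapped and it did not pass at either dose (adjusted p = 0.184 and 0.150). The annotated 3′ end of H1f4 overlaps the 5′ end of the span of H2bc6 on the same strand, so reads of that stretch cannot be told apart, in H1f4 or in H2bc6.

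**Figure D3:**
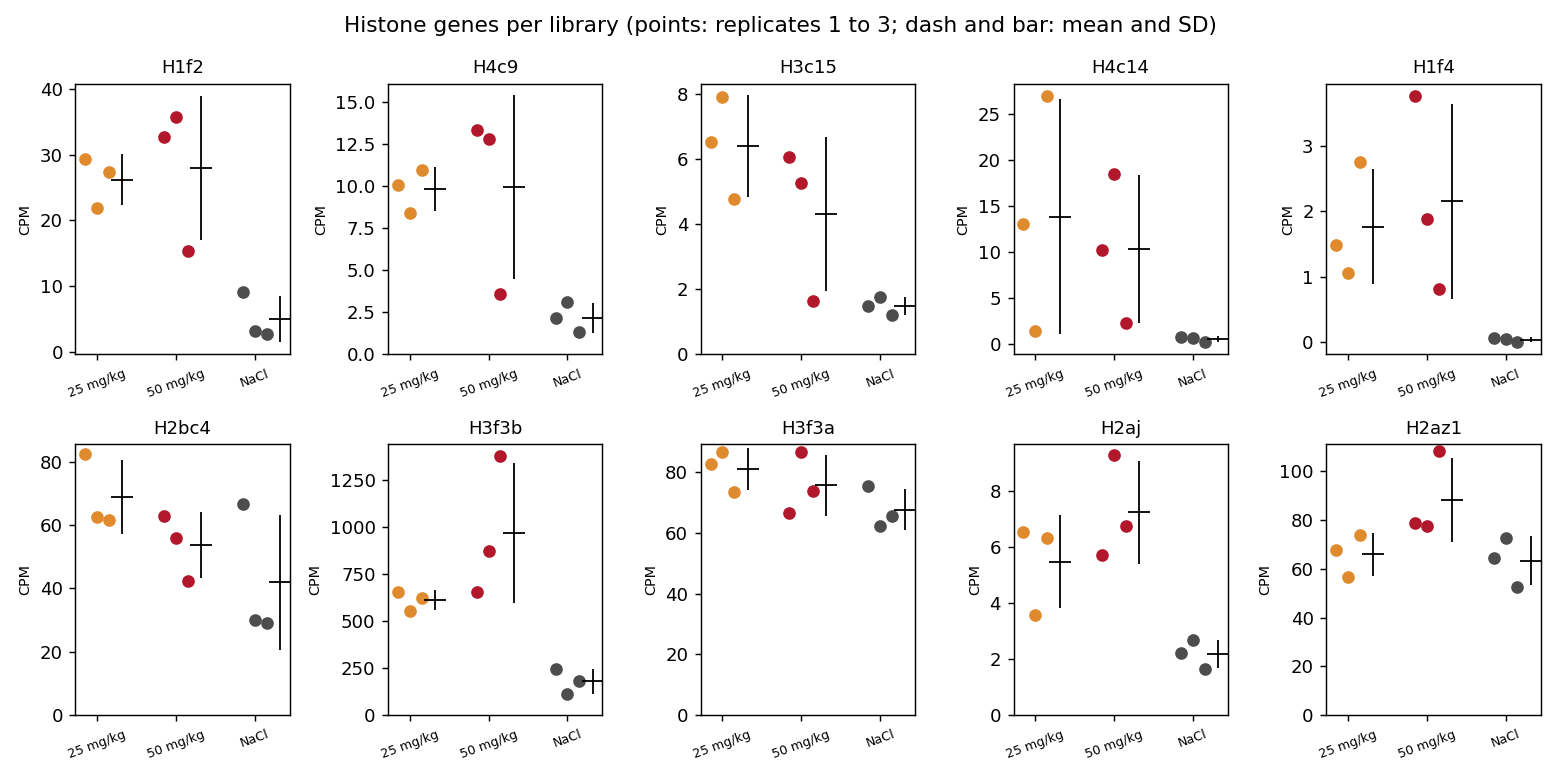
CPM (y axis, linear, a scale for each gene) of 10 histone genes in each library, with 25 mg/kg, 50 mg/kg and NaCl from left to right; points are libraries in the order of replicates 1 to 3, and the dash and bar are mean and SD. H1f2 and H3f3b show no overlap between retrorsine and NaCl libraries, while H2bc4 and H3f3a overlap at both doses.

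H4 genes, which encode a single invariant core histone, had the highest ratio to NaCl among the families with NaCl reads, with summed levels of 36.3, 13.96 and 53.3 CPM at 25 mg/kg and 38.3, 56.3 and 13.5 CPM at 50 mg/kg, against 4.64, 4.45 and 2.76 CPM with NaCl. The means were 8.74 and 9.13 times the NaCl mean. This sum includes H4c14 and Hist1h4m, which were among the genes for which the family was taken up, so its rank may follow from that choice. H4c14 alone gave 13.8 of the mean 34.5 CPM at 25 mg/kg and 10.3 of the mean 36.0 CPM at 50 mg/kg. H4c14 on chromosome 3 (chr3:96261682-96263311) had 13.1, 1.46 and 27.0 CPM at 25 mg/kg and 10.2, 18.5 and 2.32 CPM at 50 mg/kg, against 0.807, 0.657 and 0.201 CPM with NaCl. Its retrorsine libraries spread over more than a factor of 10 while none fell into the NaCl range, and its log2 fold changes were 4.66 ± 1.10 and 4.23 ± 1.09 (SE).

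H4c9 (chr13:22040636-22041362) had 10.1, 8.38 and 10.9 CPM at 25 mg/kg and 13.3, 12.8 and 3.61 CPM at 50 mg/kg, against 2.15, 3.08 and 1.31 CPM with NaCl. Its groups did not overlap, and its log2 fold change was 2.16 ± 0.48 at 25 mg/kg and 2.18 ± 0.48 at 50 mg/kg (SE; edgeR adjusted p = 0.0189 and 0.0174). H4c12 had 3.59, 0.598 and 3.57 CPM at 25 mg/kg and 4.44, 5.72 and 4.57 CPM at 50 mg/kg, against 0.538, 0.404 and 0.753 CPM with NaCl. Its groups overlapped at 25 mg/kg and not at 50 mg/kg, and its log2 fold changes were 2.19 ± 0.60 and 3.10 ± 0.60 (SE). Hist1h4m had 1.42, 0.731 and 2.71 CPM at 25 mg/kg and 2.25, 3.31 and 0.136 CPM at 50 mg/kg, against no read in any NaCl library. Against a limit of 3 counts over the NaCl group it was at least 30.6-fold higher at 25 mg/kg and at least 35.2-fold higher at 50 mg/kg, by counting error only. Hist1h4n and H4c3, which like H4c12 and Hist1h4m entered the test only through the retrorsine libraries, had 7 and 2 reads with NaCl, so their changes are poorly fixed in size. H4c8 did not pass (edgeR adjusted p = 0.215 and 0.110), with 0.0682 CPM in 50 mg/kg replicate 3 and 4.87 CPM in 50 mg/kg replicate 2.

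The H3 genes had summed levels 5.62 and 5.69 times the NaCl mean at 25 and 50 mg/kg. H3c15 (chr3:96238108-96239127), a canonical H3 gene of the chromosome 3 cluster, had 6.54, 7.91 and 4.77 CPM at 25 mg/kg and 6.08, 5.26 and 1.64 CPM at 50 mg/kg, against 1.48, 1.77 and 1.21 CPM with NaCl. Its groups did not overlap at 25 mg/kg, and at 50 mg/kg replicate 3 lay within the NaCl range. The log2 fold changes were 2.10 ± 0.46 and 1.54 ± 0.46 (SE; edgeR adjusted p = 0.0173 and 0.0494). The call was lost in 4 of 20 alternatives at 25 mg/kg and in 15 of 20 at 50 mg/kg. H3c4, which entered the test only through the retrorsine libraries, had 3 NaCl reads over the group and a read ratio of 23.2 (95% counting interval 7.58 to 115) at 25 mg/kg and 27.8 (9.12 to 138) at 50 mg/kg; its call was lost in 9 and 8 of 19 alternatives. H3c8 had no read with NaCl. Against a limit of 3 counts over that group it was at least 8.19-fold higher at 25 mg/kg and at least 40.7-fold higher at 50 mg/kg, by counting error only. At 25 mg/kg its replicates had 3, 0 and 20 reads, so its groups overlapped. At 50 mg/kg, replicate 2 supplied most of its reads (5.98 CPM against 0.0682 to 0.668 CPM in the other libraries of that dose). It did not pass (edgeR adjusted p = 0.232 and 0.0697). H3c6 and H3c11 did not pass either.

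The H2B genes, among which H2bc4 dominates, had summed levels 1.76 and 1.44 times the NaCl mean. H2bc4 (chr13:23684199-23692908) had 82.4, 62.6 and 61.7 CPM at 25 mg/kg and 62.8, 56.0 and 42.3 CPM at 50 mg/kg, against 66.6, 30.01 and 29.2 CPM with NaCl. NaCl replicate 1, the library with most acinar reads, lay within the range of the retrorsine libraries, and the log2 fold changes of 0.72 ± 0.32 and 0.36 ± 0.32 (SE) did not pass (edgeR adjusted p = 0.169 and 0.477). H2bc6, with 3.41, 0.931 and 3.09 CPM at 25 mg/kg and 3.77, 3.70 and 0.682 CPM at 50 mg/kg, against 0.134, 0.404 and 0.100 CPM with NaCl, also entered the test only through the retrorsine libraries. Its groups did not overlap, and its log2 fold changes were 3.47 ± 0.83 and 3.60 ± 0.83 (SE). Hist1h2br passed at 50 mg/kg (1.57 ± 0.42; adjusted p = 0.0334; lost in 10 of 20 alternatives) and not at 25 mg/kg (1.20 ± 0.42; adjusted p = 0.0888); the difference between the doses, 0.37 ± 0.40, did not pass either (adjusted p = 0.842). H2bc8, H2bc21 and Hist1h2bq did not pass at either dose.

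All 64 replication-dependent genes together reached 183, 126 and 179 CPM at 25 mg/kg and 172, 193 and 88.5 CPM at 50 mg/kg, against 87.5, 50.8 and 45.6 CPM with NaCl. The lowest retrorsine library, 50 mg/kg replicate 3, was barely above the highest NaCl library. The mean was 163 ± 31.6 CPM at 25 mg/kg and 151 ± 55.3 CPM at 50 mg/kg, against 61.3 ± 22.8 CPM with NaCl (SD, n = 3 each), ratios of 2.66 and 2.46. Without H2bc4 these ratios were 4.85 and 5.03. By position, the chromosome 13 cluster of 51 genes had ratios of 2.44 and 2.36 and the chromosome 3 cluster of 10 genes had ratios of 4.92 and 3.58. Of the chromosome 3 genes 7 had no read, and H4c14, among the genes for which the family was taken up, gave much of the sum. It gave 13.8 of 25.8 CPM at 25 mg/kg and 10.3 of 18.8 CPM at 50 mg/kg, against 0.555 of 5.26 CPM with NaCl. In the chromosome 13 cluster, H2bc4 gave 68.9 of 136.9 CPM at 25 mg/kg and 53.7 of 132 CPM at 50 mg/kg. With NaCl it gave 41.95 of 56.0 CPM, so this gene holds down the ratios of that cluster. The ratios therefore do not show that either cluster rose more, and the difference between the clusters was not tested.

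Within the retrorsine groups many of the tested replication-dependent genes were lowest in the same library. Replicate 2 was the lowest of its group at 25 mg/kg for 17 of the 21 tested genes, and replicate 3 was the lowest at 50 mg/kg for 16 of the 21. How often these libraries were lowest over all genes was not counted, so these counts show nothing particular to histone genes. Of the 21, 14 passed the filter only through the retrorsine libraries. The 50 mg/kg replicate 3 library also had the highest H3f3b level and the neutrophil transcripts given above; whether these are linked was not tested.

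Grouped by how the annotated transcript ends, a grouping made after the annotation was seen, the summed levels had ratios to NaCl of 1.71 to 8.58 at 25 mg/kg and of 1.36 to 13.4 at 50 mg/kg, and the difference between these groupings was not tested. The 18 replication-dependent genes whose annotated transcript runs more than 200 bases past the stem-loop had 68.1, 44.4 and 82.3 CPM at 25 mg/kg and 74.8, 87.9 and 26.4 CPM at 50 mg/kg, against 14.4, 9.85 and 5.97 CPM with NaCl. Their groups did not overlap, and the ratios of means were 6.45 and 6.26. This sum includes H1f4 and H4c14, which were among the genes for which the family was taken up, so its ratios may follow from that choice. H4c14 gave 13.8 of the mean 64.9 CPM at 25 mg/kg and 10.3 of the mean 63.0 CPM at 50 mg/kg. Of the 9 tested, 6 entered only through the retrorsine libraries. The other 3, H1f2, H3c15 and H4c9, were each called at both doses, as given above, but only H1f2 kept its calls under all alternatives. The 27 genes whose transcript ends by the stem-loop were rarer, with 8.99, 3.86 and 13.5 CPM at 25 mg/kg and 11.6, 26.2 and 3.48 CPM at 50 mg/kg, against 1.41, 0.859 and 0.803 CPM with NaCl, ratios of 8.58 and 13.4. They include Hist1h4m, also among the genes for which the family was taken up. The 5 tested among these 27 entered only through the retrorsine libraries.

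The 6 genes with a longer annotated end and no stem-loop (H2bc4, H2bc21, Hist1h2bq, Hist1h2br, H1f1 and H3c13) held 53.8% of the replication-dependent reads. They had 99.6, 77.0 and 77.2 CPM at 25 mg/kg and 78.3, 69.7 and 53.6 CPM at 50 mg/kg, against 70.7, 39.6 and 38.1 CPM with NaCl. Their ratios were 1.71 and 1.36, and of the 5 tested 0 were called at 25 mg/kg and 1 at 50 mg/kg. These ratios rest largely on H2bc4. It gave 68.9 of the mean 84.6 CPM at 25 mg/kg and 53.7 of 67.2 CPM at 50 mg/kg, against 41.95 of 49.5 CPM with NaCl. An end counted as longer when it ran more than 30 bases past the stop codon. The annotation stops 48 bases after it for H1f1 and 37 for H3c13, so a stem-loop beyond these ends would be missed. The remaining 13 genes, annotated only up to about the stop codon, held 3.27% of the reads. Gene counts do not show where a read lies, so reads past the stem-loop cannot be told apart from reads before it.

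**Figure D4:**
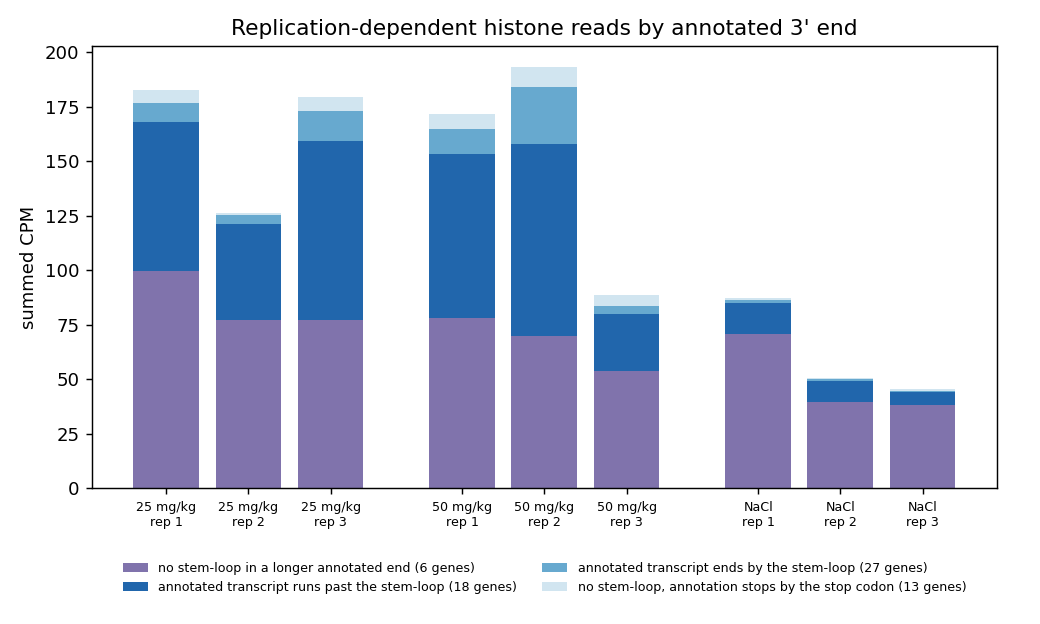
Summed CPM of replication-dependent histone genes (y axis) in each library (x axis; 25 mg/kg, 50 mg/kg and NaCl from left to right), stacked by how the annotated transcript ends. Genes whose transcript runs past the stem-loop take 26.4 to 87.9 CPM in retrorsine libraries and 5.97 to 14.4 CPM in NaCl libraries. The sum of the genes with a longer end and no stem-loop, most of it from H2bc4, differs less.

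Among the replacement variants the change lay mainly in H3f3b. H3f3b (chr11:116021912-116027962), one of the genes of the variant H3.3 that is deposited at transcribed genes and regulatory regions outside S phase, had 658, 554 and 622 CPM at 25 mg/kg and 653, 874 and 1377 CPM at 50 mg/kg, against 245, 111 and 184 CPM with NaCl. All retrorsine libraries were above all NaCl libraries, and 50 mg/kg replicate 3 was the highest. Its log2 fold change was 1.76 ± 0.32 at 25 mg/kg and 2.43 ± 0.33 at 50 mg/kg (SE; edgeR adjusted p = 0.00881 and 0.00294). The level per transcript length, as the authors' FPKM, was 209 ± 22.1 at 25 mg/kg and 309 ± 102 at 50 mg/kg, against 60.7 ± 18.8 with NaCl (SD, n = 3 each), the highest of the histone genes in all 3 groups.

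H3f3a, which encodes the same H3.3 protein, had 82.7, 86.7 and 73.5 CPM at 25 mg/kg and 66.6, 86.4 and 73.7 CPM at 50 mg/kg, against 75.4, 62.1 and 65.5 CPM with NaCl. Its groups overlapped, and its log2 fold changes were 0.26 ± 0.16 and 0.16 ± 0.16 (SE; edgeR adjusted p = 0.308 and 0.520). The level of H3f3b per length was 9.37, 7.53 and 9.96 times that of H3f3a in the same library at 25 mg/kg and 11.5, 11.9 and 22.0 times at 50 mg/kg, against 3.83, 2.10 and 3.31 times with NaCl. This within-library ratio, which scaling between libraries does not touch, was higher in every retrorsine library than in every NaCl library.

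H2aj, a gene for an H2A variant outside the large clusters, was the other replacement variant called. It had 6.54, 3.59 and 6.34 CPM at 25 mg/kg and 5.71, 9.29 and 6.75 CPM at 50 mg/kg, against 2.22, 2.68 and 1.66 CPM with NaCl. No libraries overlapped between the groups, and its log2 fold change was 1.33 ± 0.33 (SE; edgeR adjusted p = 0.0276; lost in 7 of 20 alternatives) and 1.73 ± 0.33 (adjusted p = 0.0106; lost in 1 of 20). H2ax had 7.17, 6.71 and 9.64 CPM at 25 mg/kg and 7.41, 15.4 and 5.66 CPM at 50 mg/kg, against 3.09, 5.61 and 4.72 CPM with NaCl. Its groups did not overlap either, but its log2 fold changes of 0.81 ± 0.39 and 1.08 ± 0.39 did not pass (adjusted p = 0.204 and 0.0889).

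H2az1 and H2az2, which encode the H2A.Z variants found at promoters, and H1f0, the linker histone of resting cells, did not pass at either dose. H2az1 had 67.6, 56.5 and 73.9 CPM at 25 mg/kg and 78.8, 77.8 and 108 CPM at 50 mg/kg, against 64.5, 72.7 and 52.7 CPM with NaCl. Its log2 fold changes were 0.06 ± 0.19 and 0.48 ± 0.19 (SE; edgeR adjusted p = 0.872 and 0.122). H1f0 had 43.8, 50.3 and 44.8 CPM at 25 mg/kg and 48.4, 49.1 and 38.9 CPM at 50 mg/kg, against 41.4, 42.6 and 53.0 CPM with NaCl, with log2 fold changes of 0.02 ± 0.16 and -0.01 ± 0.16. H2az2 had log2 fold changes of 0.09 ± 0.23 and -0.19 ± 0.23. H1f10 had 9 reads in all and was not tested, and the 5 germline genes had 38 reads between them, 33 of these in H1f8, the oocyte linker histone.

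The 8 replacement variants summed to 894, 794 and 854 CPM at 25 mg/kg and 885, 1136 and 1634 CPM at 50 mg/kg, against 455, 335 and 384 CPM with NaCl, ratios of means of 2.17 and 3.12. Without H3f3b the ratios were 1.12 and 1.19. Because both classes were higher, the replication-dependent share of histone reads was 16.97, 13.7 and 17.4% at 25 mg/kg and 16.2, 14.5 and 5.13% at 50 mg/kg, against 16.1, 13.2 and 10.6% with NaCl. The groups overlapped in this share. H3f3b alone took 60.1 to 61.1% of histone reads at 25 mg/kg and 61.8 to 79.9% at 50 mg/kg, against 28.7 to 45.2% with NaCl.

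**Figure D5:**
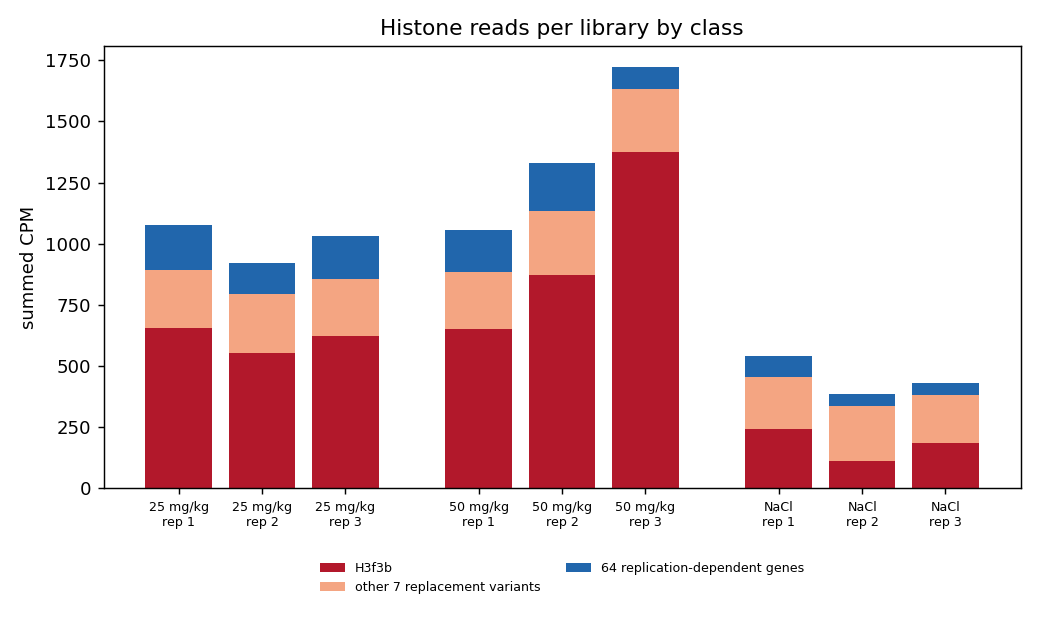
Summed CPM of histone genes (y axis) in each library (x axis; 25 mg/kg, 50 mg/kg and NaCl from left to right), stacked by class. H3f3b makes 554 to 1377 CPM in retrorsine libraries and 111 to 245 CPM in NaCl libraries, while the other 7 replacement variants together stay between 200 and 262 CPM in all libraries.

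Between the doses no histone gene passed the test. For 50 against 25 mg/kg, edgeR called 0 of the 28 tested members, with 0 at an unadjusted p below 0.05, and DESeq2 and limma-voom called 0 as well; over all genes 0.00796% were called. Every 50 mg/kg library was above every 25 mg/kg library for 4 members (H2az1, H3c1, H4c12 and H4c4), where 5.38% of the genes tested and 5.04% of all genes with a read show this. The log2 difference of 50 against 25 mg/kg was 0.66 ± 0.32 for H3f3b (SE; edgeR adjusted p = 0.608) and 0.09 ± 0.44 for H1f2 (adjusted p = 0.974). With 3 libraries in each group, these p-values do not show that the doses act alike.

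Promoter windows from RefSeq (GRCm38.p6), 250 bases before to 50 after the transcript start, were found for 63 members. The windows of H1f2, H1f4 and H3f3b are shown, 5′ to 3′ on the gene's strand, as those of the linker genes H1.2 and H1.4 and of the H3.3 gene described above; the capitals mark the motifs CCAAT and TATAAA.
H1f2, chr13:23738557-23738856, plus strand: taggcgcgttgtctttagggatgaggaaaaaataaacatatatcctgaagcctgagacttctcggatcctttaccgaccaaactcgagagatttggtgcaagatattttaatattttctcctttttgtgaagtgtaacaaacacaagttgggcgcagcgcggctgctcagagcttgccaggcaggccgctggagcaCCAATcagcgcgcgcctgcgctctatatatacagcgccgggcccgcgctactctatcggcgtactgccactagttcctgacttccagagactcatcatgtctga
H1f4, chr13:23622509-23622808, minus strand: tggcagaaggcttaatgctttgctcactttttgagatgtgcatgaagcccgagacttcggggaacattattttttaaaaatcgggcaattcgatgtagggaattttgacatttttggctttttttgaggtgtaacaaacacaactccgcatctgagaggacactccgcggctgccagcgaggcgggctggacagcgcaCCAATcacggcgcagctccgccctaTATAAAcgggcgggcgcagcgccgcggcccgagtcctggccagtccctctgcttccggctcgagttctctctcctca
H3f3b, chr11:116024455-116024754, minus strand: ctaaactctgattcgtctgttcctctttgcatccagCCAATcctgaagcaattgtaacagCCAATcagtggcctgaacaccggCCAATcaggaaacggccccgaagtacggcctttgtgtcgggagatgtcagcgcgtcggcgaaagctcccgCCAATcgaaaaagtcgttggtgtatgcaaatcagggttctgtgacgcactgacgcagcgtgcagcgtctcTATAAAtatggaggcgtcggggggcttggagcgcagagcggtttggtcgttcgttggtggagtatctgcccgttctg

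CCAAT, the box bound by NF-Y and searched on both strands, was in 86.5% of the replication-dependent windows and 71.4% of the replacement windows, where 37.4% of all 32851 promoter windows hold it. TATAAA was in 55.8%, 14.3% and 13.6% of the same sets. H3f3b is the replacement variant whose window holds TATAAA, and H3f3a's window holds CCAAT without TATAAA. TGACGTCA, the palindrome bound by factors of the CREB and ATF family, was in 7.69% of replication-dependent windows, in those of H2ac11, H2bc11, H4c1 and H4c8, and in 1.79% of all windows, and in 0 of the 7 replacement windows. TGANTCA, the letters bound by AP-1, was in 5.77% of replication-dependent windows and 7.81% of all windows. CACGTG, the E-box, was in 0 replication-dependent windows, in that of H2az1 and in 7.15% of all windows. Such matches are a description of the letters and do not show binding.

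The machinery that ends and degrades histone mRNAs was mostly below the threshold of the test. Of its 33 listed genes 31 were tested, with 1 higher and 1 lower at 25 mg/kg and 1 higher and 0 lower at 50 mg/kg. Over all genes tested, 13.5% and 15.1% were called in either direction, so these counts are no result about the list. At 25 mg/kg, Upf1, the helicase that starts histone mRNA decay, rose by 0.87 ± 0.23 on the log2 scale (SE; edgeR adjusted p = 0.0377), and Dis3l2, a 3′ exonuclease, fell by 0.80 ± 0.20 on the log2 scale (adjusted p = 0.0260). At 50 mg/kg, Lsm11, a subunit of the U7 particle, rose by 1.04 ± 0.31 (adjusted p = 0.0469), while Upf1 (0.67 ± 0.23; adjusted p = 0.0821) and Dis3l2 (-0.56 ± 0.19; adjusted p = 0.0830) did not pass. Slbp, the stem-loop binding protein, had 3.02, 6.12 and 6.01 CPM at 25 mg/kg and 5.65, 10.7 and 3.34 CPM at 50 mg/kg, against 3.09, 2.07 and 4.22 CPM with NaCl. Its groups overlapped and it did not pass (adjusted p = 0.364 and 0.151). Npat, the activator of replication-dependent histone genes, did not pass (log2 fold change -0.33 ± 0.39 and -0.59 ± 0.39; adjusted p = 0.622 and 0.340).

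Among 20 histone chaperones, all tested, 1 fell at 25 mg/kg and 2 fell at 50 mg/kg, and 0 rose. Over all genes tested, 7.56% and 8.01% fell, so these counts are no result about the chaperones. Cabin1, a subunit of the HIRA complex that deposits H3.3, had log2 fold changes of -0.84 ± 0.14 (SE; edgeR adjusted p = 0.00636) and -0.63 ± 0.14 (adjusted p = 0.0184). Atrx, the partner of the H3.3 chaperone Daxx, had -0.45 ± 0.19 (adjusted p = 0.154) and -0.96 ± 0.20 (adjusted p = 0.0125). Daxx itself did not pass (0.10 ± 0.20 and 0.15 ± 0.20).

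Of 24 genes of S phase and proliferation 21 were tested, and 1 rose at 25 mg/kg and 2 rose at 50 mg/kg. Over all genes tested, 5.90% and 7.09% rose, so these counts are no result about the list. Pcna, the sliding clamp of replication and repair, had log2 fold changes of 0.61 ± 0.16 (SE; edgeR adjusted p = 0.0385) and 0.81 ± 0.17 (adjusted p = 0.0124), and Mcm7, a helicase subunit, 0.73 ± 0.23 (adjusted p = 0.0638) and 0.79 ± 0.23 (adjusted p = 0.0464). Mcm6, another helicase subunit, had 28.7, 2.06 and 97.5 CPM at 25 mg/kg and 1.88, 10.7 and 1.30 CPM at 50 mg/kg, against 3.90, 2.27 and 7.68 CPM with NaCl. Its groups overlapped and it did not pass (log2 fold change 3.21 ± 1.17 and -0.01 ± 1.13; adjusted p = 0.101 and 0.999). Mki67, present in cycling cells, had 0.740, 1.40 and 1.84 CPM at 25 mg/kg and 2.13, 1.75 and 2.93 CPM at 50 mg/kg, against 2.76, 1.87 and 2.61 CPM with NaCl, and did not pass (adjusted p = 0.194 and 0.905). The markers Mki67, Top2a, Cdk1, Ccnb1 and Birc5 summed to 2.06 to 4.93 CPM at 25 mg/kg and 3.16 to 4.70 CPM at 50 mg/kg, against 3.49 to 5.07 CPM with NaCl. Of 8 listed RNAs that have no poly(A) tail or stay in the nucleus, 0 were found by symbol in the deposited table. A shift in what oligo(dT) captured could therefore not be checked against them.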

How the data were processed

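Liver poly(A) RNA was sequenced in 9 libraries. Per the submitters' processing notes, reads were aligned with HISAT2 to GRCm38. Not given in the sources used here are its version, the counting tool and the strand setting. The deposited table holds read counts per gene made by the authors, not normalized, and, per the file headers, the authors' FPKM values, which were used only to compare levels between genes. The test was that of edgeR 4.0.16 in R 4.3.3 (filterByExpr, TMM, 1 mean per group, 6 residual degrees of freedom, quasi-likelihood test, Benjamini-Hochberg over 12557 genes). CPM uses TMM-scaled library sizes, and the SE was derived from the fold change and its F statistic. Bounds against a group with no read use 3 counts over the group, and counting intervals cover counting error only, since no molecular identifiers were used. The procedure was tested on simulated data. Alternatives used DESeq2 1.42.0, limma 3.58.1, other scalings and filters, a replicate block, single libraries left out and, chosen after the data were seen, pairs of libraries rich in acinar or neutrophil reads left out. Named genes were the 10 replication-dependent and 7 replacement members with the highest mean CPM, every member past the threshold, the genes with the lowest adjusted p of each partner list, and Slbp, Npat, Upf1 and Mki67; further members, Daxx, Atrx at 25 mg/kg and Dis3l2 at 50 mg/kg and Mcm6 were given beside these. The members and lists were chosen with earlier results of these data known. Counts of replicate libraries differed by more than sampling noise, so each was kept as a sample. Stem-loops were searched in GENCODE M21 transcripts of all 77 members and motifs in RefSeq promoter windows.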

Additional observations from a re-analysis of the deposited data

How the results depend on the processing

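No member past the threshold changed direction under any alternative. Against 13 histone genes called higher at 25 mg/kg (11 replication-dependent, 2 replacement), limma-voom called 8 (6 replication-dependent) and leaving out NaCl replicate 1 and 50 mg/kg replicate 2 gave 6 (5 and 1). With NaCl replicate 1 and 50 mg/kg replicate 3 left out, 1 replacement variant was called at 25 mg/kg. Against 14 at 50 mg/kg (12 and 2), DESeq2 called 22 (19 replication-dependent), limma-voom 8 (6), a fit of only the groups compared 9 (7), and leaving out NaCl replicate 1 and 50 mg/kg replicate 2 gave 3 (2 and 1). Leaving out single libraries gave 3 to 16 genes at 25 mg/kg (2 to 14 replication-dependent, 1 to 2 replacement) and 5 to 21 at 50 mg/kg (3 to 18, and 2 to 3). With a replicate block the counts were 7 (6 and 1) and 8 (6 and 2); same-numbered libraries correlated between -0.23 and 0.136, so the numbers were not taken to pair samples. The log2 ratio of the replication-dependent sum, 1.41 and 1.30, was 2.28 and 2.33 without H2bc4. That of the replacement sum, 1.12, 1.64 and, for 50 against 25 mg/kg, 0.52, was 0.16, 0.25 and 0.084 without H3f3b. Leaving out libraries leaves fewer samples and degrees of freedom; for the other changes the cause was not tested. Of the replication-dependent genes 29 had under 10 reads in all, which limits what can be said of each. The replication-dependent log2 ratio of 50 against 25 mg/kg, -0.11, ran from -0.32 to 0.16 with single libraries left out. Small log2 fold changes that were not past the threshold also changed sign, in 18 named results. With single libraries left out, those against NaCl ran at 25 mg/kg from -0.046 to 0.14 (H1f0), -0.057 to 0.17 (H2az1) and -0.069 to 0.39 (H2az2), and at 50 mg/kg from -0.071 to 0.11 (H1f0) and -0.34 to 0.11 (H2az2). Those of 50 against 25 mg/kg ran from -0.083 to 0.075 (H1f0), -0.12 to 0.39 (H1f2), -0.39 to 0.76 (H1f4), -0.26 to 0.54 (H2ax), -0.25 to 0.58 (H2bc6), -0.54 to 1.31 (H3c4), -1.14 to 0.50 (H4c14), -0.72 to 0.38 (H4c3), -0.25 to 0.41 (H4c9), -0.070 to 0.57 (Hist1h2br), -0.43 to 0.81 (Hist1h4m) and -0.24 to 0.78 (Hist1h4n). With NaCl replicate 1 and 50 mg/kg replicate 2 left out, H1f0 and H2az2 at 25 mg/kg had -0.045 and -0.025 and H2bc21 at 50 mg/kg had -0.15. The same choice gave, for 50 against 25 mg/kg, -0.12 (H1f2), -0.21 (H4c9), -0.24 (Hist1h4n), -0.26 (H2ax), -0.15 (H2bc6), -0.43 (Hist1h4m) and -0.54 (H3c4). With NaCl replicate 1 and 50 mg/kg replicate 3 left out, H1f0 and H2az2 at 25 mg/kg had -0.046 and -0.025, H1f0 at 50 mg/kg had 0.030, and for 50 against 25 mg/kg H4c14 had 0.045, H1f0 0.075 and H4c3 0.16. H1f0 at 50 mg/kg was 0.0064 with DESeq2 size factors and 0.0058 with DESeq2. For 50 against 25 mg/kg, limma-voom gave -0.18 (H4c9), -0.043 (Hist1h4n), -0.026 (H2bc6) and -0.41 (Hist1h4m), a replicate block -0.19 (H4c9) and -0.10 (H2bc6), upper-quartile scaling -0.0051 (H4c9) and library totals -0.042 (H4c9).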
